A study of Mus musculus with 6 samples.

Results

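The MS4A genes encode a family of membrane proteins, and 7 of them were followed in splenic follicular (Fo) B cells: Ms4a1, which encodes CD20, and its relatives Ms4a4b, Ms4a4c, Ms4a6b, Ms4a6c, Ms4a6d and Ms4a7. They were taken by gene symbol from a table of 24346 genes per library, and all 7 were present. RNA sequencing had been done on 3 libraries of G9gl mice, which carry the knock-in on both alleles, and 3 libraries of B6 control mice, called WT here. All mice were 8 weeks old, and all cells had been sorted as B220+ CD93- cells with low CD21 and high CD23. G9gl is the germline precursor, heavy and light chain, of an anti-dsDNA antibody that came from a person with lupus, and the study set these cells against WT to learn about their anergic state, in which self-reactive B cells persist but respond poorly. The labels do not say whether the 3 libraries of a genotype came from separate mice, so the spread behind each p-value may be a technical one.

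MS4A proteins cross the membrane several times and keep both ends inside the cell. CD20 is the best-known member, is displayed on B cells from the precursor stage until they become plasma cells, is associated with the B cell receptor and with calcium entry, and is the target of therapeutic antibodies that deplete B cells. Other members are known from other leukocytes: in mice, Ms4a4b and Ms4a6b were described in T cells, and Ms4a6c, Ms4a6d and Ms4a7 in monocytes and macrophages. In the mouse the genes lie side by side on chromosome 19, so the family can be read as a block of neighbours as well as a set of relatives.

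The family holds close pairs, and their promoters are shown because genes of a pair have much of this sequence in common while their transcript levels differ. Each stretch runs from 250 bases before to 50 bases after the start site, 5′ to 3′ on the plus strand of chromosome 19 (RefSeq sequences, GRCm38.p6), and capitals mark runs of at least 20 bases that are identical in both genes of the pair. The gene positions given further below come from another annotation and begin upstream of these windows for Ms4a4c (11404770) and Ms4a6b (11516512). For these genes the window thus lies inside the gene as positioned there.
Ms4a4b (chr19:11443308-11443607): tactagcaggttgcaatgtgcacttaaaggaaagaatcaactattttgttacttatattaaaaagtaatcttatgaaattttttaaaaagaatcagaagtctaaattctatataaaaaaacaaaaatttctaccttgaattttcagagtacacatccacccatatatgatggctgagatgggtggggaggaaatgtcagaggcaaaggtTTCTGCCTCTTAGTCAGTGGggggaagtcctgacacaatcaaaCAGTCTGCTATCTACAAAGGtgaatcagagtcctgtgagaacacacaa
Ms4a4c (chr19:11407411-11407710): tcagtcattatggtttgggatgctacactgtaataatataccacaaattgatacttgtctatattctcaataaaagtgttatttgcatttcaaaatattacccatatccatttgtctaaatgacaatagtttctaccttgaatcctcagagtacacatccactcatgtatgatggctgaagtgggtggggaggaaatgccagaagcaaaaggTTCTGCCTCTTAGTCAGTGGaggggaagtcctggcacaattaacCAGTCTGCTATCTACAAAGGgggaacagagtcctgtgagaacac
Ms4a6b (chr19:11518309-11518608): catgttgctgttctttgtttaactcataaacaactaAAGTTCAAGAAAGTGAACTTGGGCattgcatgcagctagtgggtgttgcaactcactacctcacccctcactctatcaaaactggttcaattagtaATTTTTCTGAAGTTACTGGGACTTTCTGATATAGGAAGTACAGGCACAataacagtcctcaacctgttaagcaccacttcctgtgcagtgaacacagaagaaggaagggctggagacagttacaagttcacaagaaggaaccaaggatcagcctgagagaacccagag
Ms4a6c (chr19:11469118-11469417): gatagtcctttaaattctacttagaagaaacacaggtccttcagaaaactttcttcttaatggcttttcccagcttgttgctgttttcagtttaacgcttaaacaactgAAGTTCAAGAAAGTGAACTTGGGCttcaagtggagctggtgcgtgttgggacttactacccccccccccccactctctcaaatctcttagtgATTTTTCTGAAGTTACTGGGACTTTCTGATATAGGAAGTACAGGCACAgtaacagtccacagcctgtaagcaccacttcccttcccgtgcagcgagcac
Over the best local alignment, the Ms4a4b and Ms4a4c promoters had 162 identical bases of 182 aligned (89.0%), and the Ms4a6b and Ms4a6c promoters 182 of 213 (85.4%). The longest uninterrupted run in common was 20 bases in the first pair and 48 bases in the second.

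Short motifs were searched on both strands in the 6 promoters that the table gives for 5 members, among them Ms4a7. The octamer ATGCAAAT, a site bound by Oct factors of the B lineage, stood in the Ms4a4c promoter on the minus strand, at position -170 from the start site, in a stretch not shared with Ms4a4b. It occurred in 1.74% of 32851 promoters. An NF-kB-type motif (GGGA, then 4 arbitrary bases, then CC) stood in the Ms4a6c promoter at position -189, and 20.7% of all promoters hold one. The interferon response core (GAAA, 2 arbitrary bases, GAAA, in 3.44% of all promoters), the gamma-activated sequence TTCNNNGAA (8.30%), the ETS-type GAGGAAG (13.6%) and the T-box sequence TCACACCT (1.28%) had no match in these windows. A match describes letters and not a bound site. Only these exact letters were searched, so variants that differ by a base were not counted, and no match does not mean that such a site is absent.

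Expression values were FPKM, fragment numbers normalised for transcript length and library size, so levels of different genes can be set beside each other. Ms4a1 was the most abundant member in both genotypes and Ms4a4c the second, followed by Ms4a6b, Ms4a6c and Ms4a4b. Mean Ms4a1 ranked 132nd of the 24346 genes in G9gl and 94th in WT, and Ms4a4c ranked 368th in G9gl and 519th in WT. Ms4a6d and Ms4a7 stayed under 1 FPKM in all 6 libraries. The order of the upper 5 was the same in both genotypes, but in G9gl the ranges of Ms4a6b (20.5 to 24.0 FPKM) and Ms4a6c (17.3 to 21.1 FPKM) overlapped, whereas in WT they did not (11.5 to 13.7 FPKM against 7.76 to 8.79 FPKM). Ms4a6d and Ms4a7 overlapped in both genotypes.

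**Figure D1:**
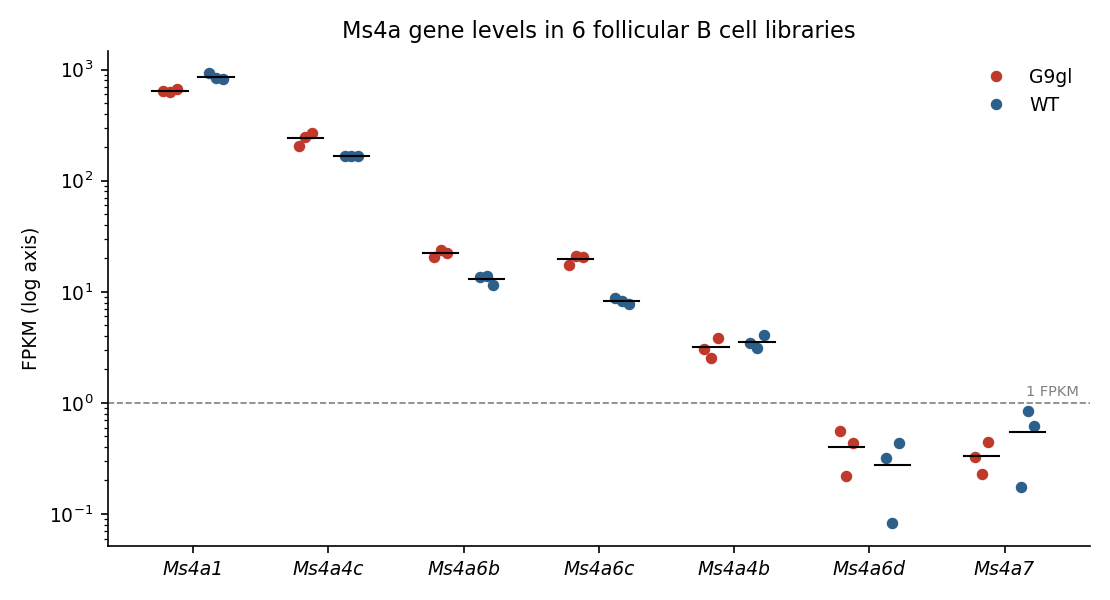
FPKM (log axis) of the 7 Ms4a genes, with 1 point per library, G9gl in red, WT in blue and the mean of 3 libraries as a line. Points of Ms4a1, Ms4a4c, Ms4a6b and Ms4a6c do not overlap between genotypes, and Ms4a6d and Ms4a7 lie under the dashed line at 1 FPKM.

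Genotypes were compared with limma on log2(FPKM + 1) over all genes that reached 1 FPKM in 3 or more libraries, and a gene is called at a Benjamini-Hochberg adjusted p under 0.05. On this scale a fold change understates the difference of genes with low FPKM. Of the 7 members 5 passed the filter on low values. Ms4a4c, Ms4a6b and Ms4a6c were called higher in G9gl, 3 of 5 tested, against 11.8% of all 10122 tested genes called higher. Ms4a1 was called lower, 1 of 5, against 11.6% of all tested genes called lower, and Ms4a4b did not pass. The libraries of the genotypes did not overlap for these 4 genes, which also held for 20.3% of tested genes on the higher side and 20.5% on the lower side. In bulk samples a change in RNA per cell and a change in the share of cells that express a gene cannot be told apart.

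Ms4a1 (chromosome 19, 11249675 to 11266241, minus strand, mm10) had 638.7, 634.2 and 664.3 FPKM in the G9gl libraries, against 929, 836 and 826 FPKM in the WT libraries. All G9gl libraries lay below all WT libraries, and the G9gl values were close together while WT replicate 1 was the highest. The means were 646 ± 16.2 FPKM in G9gl and 863 ± 56.6 FPKM in WT (SD, n = 3 each), a ratio of 0.748. The log2 fold change was -0.42 ± 0.056 (SE), with a limma adjusted p of 7.8e-04. Among the 1174 genes called lower, 627 fell by at least as much, so that the decrease of the CD20 transcript was near the middle of the decreases called. About 19180 to 21432 fragments in G9gl and 23839 to 29136 in WT stood behind each value, as estimated from library depth and the longest transcript.

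Ms4a4c (chromosome 19, 11404770 to 11427246, plus strand), a close relative of Ms4a4b, had 207, 249 and 267 FPKM in the G9gl libraries, against 167, 169 and 167 FPKM in the WT libraries. The WT libraries were nearly equal, and G9gl replicate 1 stood lowest in its group but above all of WT. The means were 241 ± 30.5 FPKM in G9gl and 168 ± 1.07 FPKM in WT, with a log2 fold change of 0.52 ± 0.084 and a limma adjusted p of 0.0022. Of the 1191 genes called higher, 495 rose by at least as much.

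Ms4a6c (chromosome 19, 11469366 to 11482192, plus strand) changed most of the tested members in relative terms. It had 17.3, 21.1 and 20.5 FPKM in the G9gl libraries, against 8.79, 8.34 and 7.76 FPKM in the WT libraries. Even the lowest G9gl library was well above the highest WT library. The means were 19.6 ± 2.08 FPKM in G9gl and 8.30 ± 0.514 FPKM in WT, a ratio of 2.37, with a log2 fold change of 1.15 ± 0.098 and a limma adjusted p of 6.2e-05. Of the genes called higher, 106 (8.90%) rose by at least as much.

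Ms4a6b (chromosome 19, 11516512 to 11531256, plus strand), the partner of Ms4a6c, had 20.5, 24.0 and 22.2 FPKM in the G9gl libraries, against 13.6, 13.7 and 11.5 FPKM in the WT libraries. The groups did not overlap, with WT replicate 3 the lowest. The means were 22.2 ± 1.76 FPKM in G9gl and 12.9 ± 1.23 FPKM in WT, and the log2 fold change was 0.74 ± 0.094 with a limma adjusted p of 6.1e-04. Of the genes called higher, 276 rose by at least as much.

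Ms4a4b (chromosome 19, 11443553 to 11467055, plus strand) had 3.09, 2.54 and 3.86 FPKM in the G9gl libraries, against 3.45, 3.13 and 4.05 FPKM in the WT libraries. The groups overlapped, and the log2 fold change of -0.13 ± 0.15 did not pass (limma adjusted p of 0.55). Its promoter is close to that of Ms4a4c, yet in each library Ms4a4c was 67.2 to 98.2 times as high in G9gl and 41.2 to 53.9 times as high in WT. Their longest protein-coding transcripts had 90.5% identity over 1651 aligned bases, and the words of 50 bases that they had in common were 2.85% of those of Ms4a4b and 7.67% of those of Ms4a4c. Fragments from these stretches could be split between both genes, so the low level of Ms4a4b is uncertain.

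The Ms4a6 genes are also close. Ms4a6b and Ms4a6c were 89.3% identical over 1192 aligned bases, with 6.08% of the Ms4a6c words and 4.14% of the Ms4a6b words in common. Ms4a6b and Ms4a6d had 40 such words in common, 2.69% of those of Ms4a6d. Ms4a1 and Ms4a7 had no word of 50 bases in common with any other member. Each of Ms4a1, Ms4a4c, Ms4a6b and Ms4a6c also overlapped an annotated antisense, noncoding or pseudogene locus on the opposite strand, and whether fragments were counted by strand is not given in the labels. The locus over Ms4a1, 4930526L06Rik, reached at most 0.121 FPKM.

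Ms4a6d (chromosome 19, 11586604 to 11604849, minus strand) had 0.553, 0.221 and 0.432 FPKM in the G9gl libraries, against 0.318, 0.0826 and 0.432 FPKM in the WT libraries. Ms4a7 (chromosome 19, 11321039 to 11336146, minus strand) had 0.326, 0.228 and 0.447 FPKM in the G9gl libraries, against 0.173, 0.853 and 0.625 FPKM in the WT libraries. Both genes overlapped between genotypes and were not tested in the main comparison. The Ms4a6d values rest on about 3 to 8 fragments per library in G9gl and 1 to 6 in WT, so that no difference was detectable at this depth. With no filter on low values their limma adjusted p values were 0.58 for Ms4a6d and 0.56 for Ms4a7.

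Ratios between members of 1 library do not depend on how the libraries were scaled. The Ms4a4c to Ms4a1 ratio was 0.325, 0.393 and 0.402 in the G9gl libraries, against 0.180, 0.202 and 0.202 in the WT libraries. Every G9gl library was above every WT library, which was fixed by the separate ranges of Ms4a4c and Ms4a1 given above. The means were 0.373 ± 0.0422 in G9gl and 0.195 ± 0.0123 in WT. The Ms4a6c to Ms4a6b ratio was 0.841, 0.879 and 0.925 in the G9gl libraries, against 0.647, 0.607 and 0.674 in the WT libraries, so that the genes of this pair differed in how much they changed. Ms4a1 made up 69.3% ± 2.29 of the summed FPKM of the 7 members in G9gl and 81.7% ± 0.909 in WT, and Ms4a4c 25.8% ± 2.13 in G9gl and 15.9% ± 0.837 in WT. The sum itself was 933 ± 45.3 FPKM in G9gl and 1057 ± 57.4 FPKM in WT. Each of these 5 comparisons had a two-sided exact permutation p of 0.1, also after adjustment over the 5, and 0.1 is the smallest p that 3 against 3 libraries allow. The Ms4a4c to Ms4a1 ratio and the shares of these genes restate their calls and are no separate evidence.

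**Figure D2:**
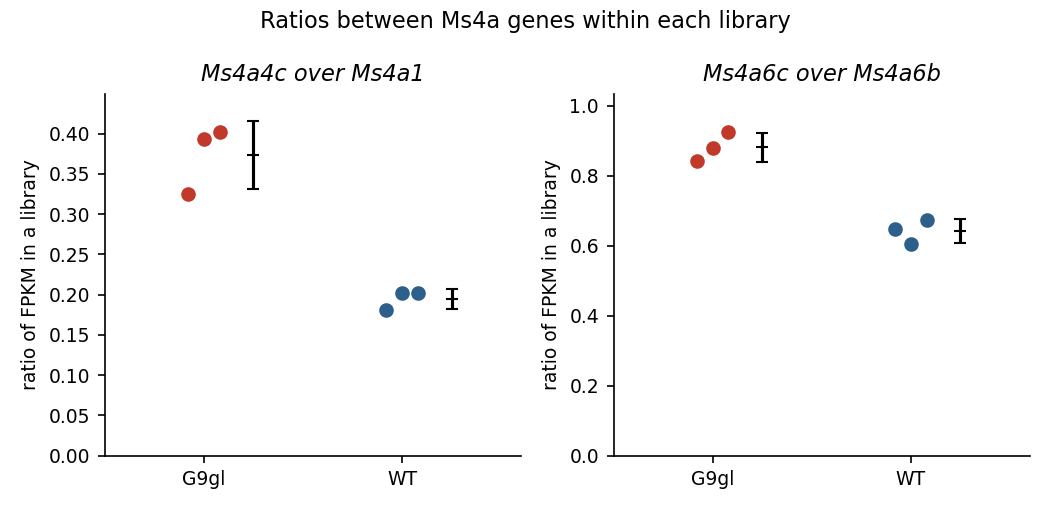
Ratio of FPKM between 2 Ms4a genes in each library, Ms4a4c over Ms4a1 on the left and Ms4a6c over Ms4a6b on the right, for G9gl (red) and WT (blue), with mean ± SD of 3 libraries in black. All G9gl points lie above all WT points in both panels, which on the left follows from the separate ranges of both genes.

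The tables held 9 further Ms4a genes, and none reached 1 FPKM in any library. Ms4a10, Ms4a13, Ms4a18 and Ms4a5 were listed at 0 in all 6 libraries. Ms4a4d had 0.146, 0.203 and 0.398 FPKM in the G9gl libraries, against 0.0734, 0.0762 and 0.637 FPKM in the WT libraries. Ms4a2, which encodes the beta chain of the high-affinity IgE receptor of mast cells and basophils, reached 0.1498 FPKM in G9gl and 0.308 FPKM in WT, and Ms4a3, a gene of granulocyte and monocyte precursors, reached 0.518 FPKM in G9gl and was listed at 0 in all WT libraries. Ms4a15 and Ms4a8a reached 0.0658 and 0.215 FPKM, both in a G9gl library. The related genes Tmem176a and Tmem176b, which lie elsewhere in the genome, had means of 2.03 and 7.28 FPKM in G9gl and 2.39 and 7.62 FPKM in WT and did not pass (limma adjusted p of 0.38 and 0.80).

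The annotated Ms4a genes span 679 kb of chromosome 19. Of 23 other tested genes within this span or 1 Mb to either side, 1 was called higher and 4 lower, which is 21.7% against 23.4% of all tested genes called in either direction. AW112010, which lies inside the span, had 202 ± 3.09 FPKM in G9gl and 102 ± 6.18 FPKM in WT (log2 fold change 0.98 ± 0.057, limma adjusted p of 6.3e-06). Cyb561a3, a cytochrome b561 family gene, had 154 ± 5.29 FPKM in G9gl and 263 ± 11.02 FPKM in WT (limma adjusted p of 1.9e-05). Fam111a and Fth1, the ferritin heavy chain gene, fell less, with log2 fold changes of -0.30 and -0.22. Osbp, an oxysterol-binding protein gene, had 4.93, 4.002 and 5.01 FPKM in the G9gl libraries, against 19.7, 10.985 and 6.95 FPKM in the WT libraries, and its call (limma adjusted p of 0.016) was lost with no filter on low values (0.080) and with a robust fit (0.063). The call of Fth1 was lost with no filter and without WT replicate 2, G9gl replicate 2 or G9gl replicate 3. Gm8369, which lies between Ms4a6c and Ms4a6b, had 47.0 ± 7.14 FPKM in G9gl and 41.1 ± 11.2 FPKM in WT and did not pass (limma adjusted p of 0.42).

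**Figure D3:**
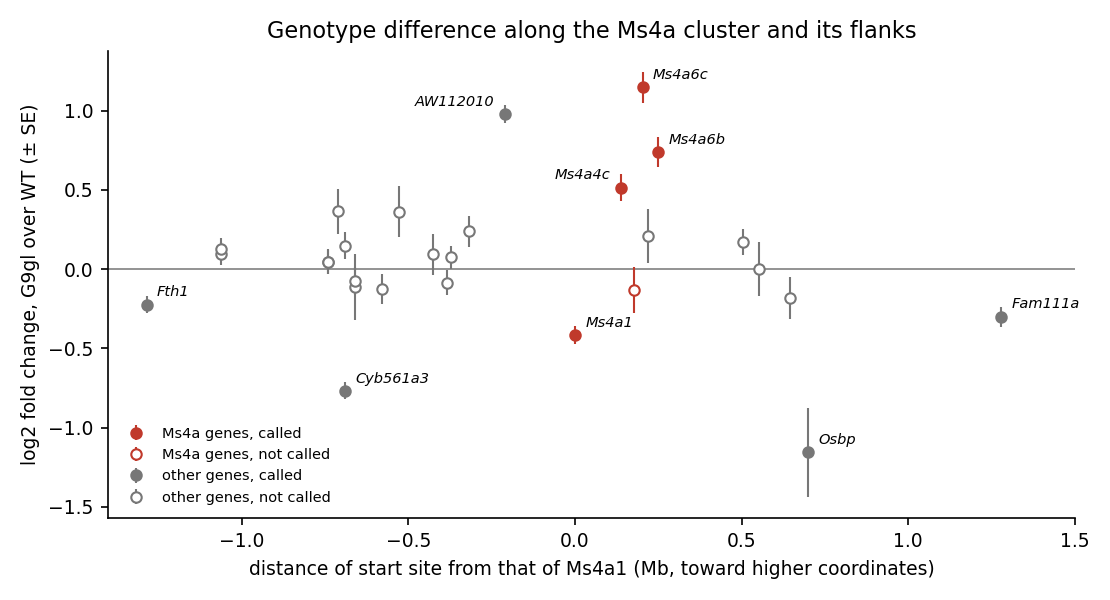
Log2 fold change ± SE (G9gl over WT) of tested genes against the distance of their start site from that of Ms4a1 in Mb, with Ms4a genes in red, other genes in grey and filled symbols for called genes. Ms4a4c, Ms4a6b and Ms4a6c lie on the higher side, Ms4a1 on the lower side, and most other genes near 0.

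Genes that act with CD20 were described from a list of 15 membrane and signalling proteins. In G9gl 4 were higher, 3 lower and 8 did not pass, against 11.8% higher and 11.6% lower among all tested genes. The median log2 fold change was -0.059, against -0.0022 over all tested genes, and moved to -0.033 without WT replicate 3, -0.038 without G9gl replicate 2, -0.14 after quantile normalization and -0.19 after rescaling to TPM. Lck, a Src-family kinase gene, rose most, with 99.3 ± 10.4 FPKM in G9gl and 37.4 ± 3.36 FPKM in WT (log2 fold change 1.38, limma adjusted p of 1.4e-05). The class II genes H2-Aa and H2-Ab1 rose by 0.50 and 0.49 on the log2 scale and Cd74, the invariant chain gene, by 0.29. Fyn, another Src-family kinase gene, had 16.8 ± 2.67 FPKM in G9gl and 28.1 ± 1.45 FPKM in WT and fell by 0.72, and Cd37, a tetraspanin gene, and Cd79a, which encodes a chain of the B cell receptor, fell by 0.17 each. The calls of Cd37 and Cd79a (limma adjusted p of 0.032 and 0.039) were both lost when WT replicate 2 or 3 or G9gl replicate 2 or 3 was left out, in the unfiltered fit and in the fit blocked on replicate number (0.075 and 0.088 there), which left Fyn as the 1 gene lower. After quantile normalization H2-Ab1 (0.087, limma adjusted p of 0.38) and Cd74 (log2 fold change 0) were no longer called. This scaling gives equal values to equal ranks, so it removes differences between genes at the very top and cannot test them. The Cd74 call was also lost with no filter (limma adjusted p of 0.36). Cd79b and Cd81 did not reach the threshold but were called lower after quantile normalization and after rescaling to TPM. The number lower was 6 after quantile normalization (with 2 higher) and 9 with values rescaled to TPM.

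Of 18 B-lineage transcription factor genes, several of which are known to act on the CD20 gene, 2 were higher, 10 lower and 6 did not pass, against 11.8% higher and 11.6% lower among all tested genes, with a median log2 fold change of -0.24. Spi1, which encodes PU.1, had 91.9 ± 3.17 FPKM in G9gl and 120 ± 5.51 FPKM in WT (log2 fold change -0.39, limma adjusted p of 0.0014), and its relative Spib fell by 0.37. Irf4, which encodes another partner of PU.1, fell by 0.53. Irf8, a partner of PU.1, rose by 0.51, with 490 ± 17.5 FPKM in G9gl and 344 ± 12.4 FPKM in WT, and Pou2af1, which encodes a coactivator of Oct factors, rose by 0.47. Of the Oct factor genes themselves, Pou2f2 fell by 0.33 (limma adjusted p of 0.022) and Pou2f1 was not called. Ebf1 and Ikzf3 were not called, although Ebf1 was called lower without G9gl replicate 1, with library weights and after rescaling to TPM. Rescaling to TPM gave a median of -0.37, with 11 lower and 2 higher.

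Of 16 tested genes of calcium release and entry, 3 were higher, 7 lower and 6 did not pass, against 11.8% higher and 11.6% lower among all tested genes. The median log2 fold change was -0.14, and it was -0.22 without G9gl replicate 3 and -0.27 after rescaling to TPM. Itpr3, which encodes a calcium release channel of the endoplasmic reticulum, had 22.5 ± 2.41 FPKM in G9gl and 33.0 ± 1.13 FPKM in WT (limma adjusted p of 0.0019). Of the related channel genes, Itpr1 fell by 0.37 while Itpr2 rose by 0.29 (limma adjusted p of 0.0058 and 0.013). Orai1 and Orai2, genes of store-operated calcium channels, fell by 0.31 each. Saraf, which encodes a brake on this entry, rose by 0.44, with 32.7 ± 1.16 FPKM in G9gl and 24.0 ± 2.19 FPKM in WT. Blnk also rose, by 0.21 (limma adjusted p of 0.039). Stim1, Stim2 and Orai3 were not called. After rescaling to TPM 1 was higher and 9 lower, and without G9gl replicate 2 1 was higher and 5 lower.

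**Figure D4:**
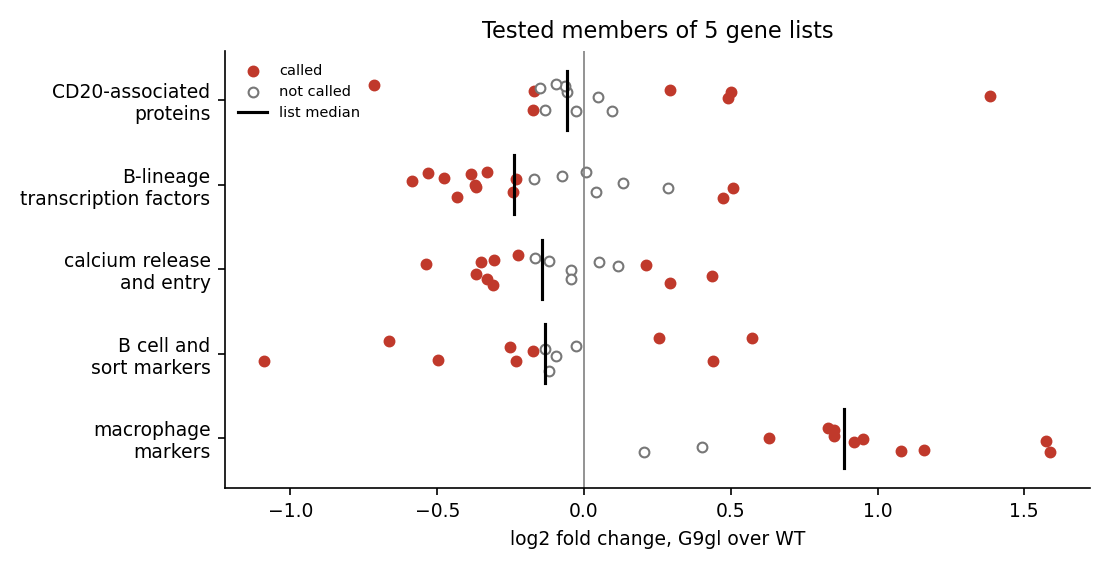
Log2 fold change (G9gl over WT) of each tested gene of 5 lists, with called genes filled, genes that were not called open and the list median as a black line. Macrophage markers lie to the right, with a median of 0.89, and the other lists lie on both sides of 0.

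The sorted cells carried the markers of follicular B cells in both genotypes. Cd79b, which encodes a signalling chain of the B cell receptor, had 2425 ± 32.1 FPKM in G9gl and 2473 ± 53.6 FPKM in WT, and Cd93, which the sort excluded, 1.46 ± 0.385 FPKM in G9gl and 1.65 ± 0.147 FPKM in WT. Of 13 B cell and sort markers 3 were higher and 6 lower, against 11.8% higher and 11.6% lower among all tested genes. The number lower was 4 without WT replicate 2 or 3, without G9gl replicate 2 or 3, in the unfiltered fit and in the blocked fit, 8 after quantile normalization and 9 after rescaling to TPM. Cr2, which encodes the gated CD21, had 61.2 ± 2.42 FPKM in G9gl and 131 ± 7.20 FPKM in WT.

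Because several members are also expressed by macrophages, monocytes, T cells or NK cells, markers of these cells were read beside them. Macrophage markers were higher in G9gl, as were Ms4a6c, Ms4a6b and Ms4a4c. The summed level of these markers was 62.4 to 68.9 FPKM in G9gl and 24.0 to 31.7 FPKM in WT over 19 genes. Of 12 tested 10 were higher, against 11.8% of all tested genes, and 0 lower (0 lower also at an unadjusted limma p under 0.05). Lyz2 had 13.2 ± 1.19 FPKM in G9gl and 6.57 ± 1.39 FPKM in WT, and C1qb 8.11 ± 0.829 FPKM in G9gl and 2.08 ± 0.793 FPKM in WT. Within G9gl both were highest in replicate 1 (14.5 and 9.05 FPKM), where Ms4a6c, Ms4a6b and Ms4a4c were lowest. Some other tested markers were highest in replicate 2 or 3. Adgre1, which encodes F4/80, did not pass (2.95 ± 0.396 FPKM in G9gl and 2.42 ± 0.116 FPKM in WT), and 6 of the 19 markers stayed under 1 FPKM in all libraries. With no filter on low values 8 of 19 were higher, with a median log2 fold change of 0.63, against 968 of all 19079 genes. Without G9gl replicate 1, 2 or 3 it was 8, 8 and 7 of 11. A marker that passed the filter through its G9gl values alone dropped out there. Of the members known from monocytes and macrophages, Ms4a6c rose and Ms4a6d and Ms4a7 were under 1 FPKM in all libraries. The part of these cells in the Ms4a values was not tested.

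Monocyte and neutrophil markers summed to 54.0 to 70.1 FPKM in G9gl and 14.3 to 22.2 FPKM in WT over 14 genes, with 2 of 3 tested (S100a8 and Ly6c2) higher, against 11.8% of all tested genes, and Cebpe at 0 throughout. With no filter 4 of 13 were higher, against 968 of all 19079 genes. Of the 14 genes 9 stayed under 1 FPKM in all libraries. Among those not tested, Camp, Ngp and Mpo were higher in G9gl without overlap. Itgam went the other way without overlap (0.238 to 0.385 FPKM in G9gl and 0.401 to 0.827 FPKM in WT). Among tested genes 20.3% did not overlap on the higher side and 20.5% on the lower side. The share among genes that were not tested was not computed. Ly6c2 alone had 38.6 ± 17.7 FPKM in G9gl and 12.5 ± 1.34 FPKM in WT, and its call was lost with a robust fit (limma adjusted p of 0.074). Dendritic cell markers summed to 306 to 317 FPKM in G9gl and 314 to 330 FPKM in WT over 10 genes, nearly all from Ccr7, which B cells also express, and 2 of 4 tested (Zbtb46 and Cd209a) were higher, against 11.8% of all tested genes. Zbtb46 was at 0.247 to 0.676 FPKM in WT and passed the filter through G9gl alone. With no filter 1 of 9 dendritic cell markers was higher, against 968 of all 19079 genes. The call of Cd209a was lost with no filter and without WT replicate 2 or 3 or G9gl replicate 3. Clec10a was at 0 throughout.

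T cell markers summed to 11.5 to 13.4 FPKM in G9gl and 8.98 to 11.3 FPKM in WT over 16 genes. Of 5 tested 0 were called by limma, also at an unadjusted p under 0.05, against 23.4% of all tested genes called in either direction. NK cell markers summed to 9.42 to 13.6 FPKM in G9gl and 3.36 to 6.17 FPKM in WT over 10 genes, and Prf1, Klrd1 and Nkg7 were higher, the last with a limma adjusted p of 0.049 that was lost in 11 alternatives, 5 of them leaving out a library. These were 3 of 3 tested, against 11.8% of all tested genes called higher. Klrd1 was at 0.160 to 0.436 FPKM in WT and passed the filter through G9gl alone. With no filter 2 of 10 NK cell markers were higher, against 968 of all 19079 genes, with a median log2 fold change of 0.041 for these markers. Mast cell and basophil markers summed to under 1 FPKM in all libraries. Of 5 tested plasma cell markers Jchain and Sdc1 were higher and Irf4 lower, against 11.8% higher and 11.6% lower among all tested genes. Jchain was at 0.414 to 0.795 FPKM in WT and passed the filter through G9gl alone. With no filter 2 of 7 plasma cell markers were higher and 1 lower, against 968 higher and 785 lower of all 19079 genes. Erythroid markers summed to 32.3 to 220.7 FPKM in G9gl and 26.6 to 43.7 FPKM in WT, with 1 of 6 genes tested. That gene, Hba-a1, had a log2 fold change of 1.05 and was not called (limma adjusted p of 0.20), but it was called higher without G9gl replicate 3 (1.70, limma adjusted p of 0.019), and its value was 0.33 without G9gl replicate 1. The part of any of these cells in the Ms4a values was not tested.

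For each tested member the 3 genes with the most similar profile were sought, measured as the root mean square distance between log2(FPKM + 1) values of the 6 libraries after centring each gene. Nearest to Ms4a1 were Mtpn (0.035), Top2b (0.039) and Atad2b (0.042), all called lower, with the call of Atad2b lost without WT replicate 1 or G9gl replicate 2. Nearest to Ms4a4c were Sumo3 (0.030), Gaa (0.049) and Nfkbie (0.053), and nearest to Ms4a6b were Fbxo36 (0.040), Jdp2 (0.044) and Prdx4 (0.067). Ms4a6c was nearest to Traf1 (0.053), Dusp4 (0.083) and Chst7 (0.085), and these 9 genes were called higher. The profiles hold the genotype difference, so a direction in common with the member follows from the choice and is no separate evidence. The distance is compressed at low FPKM. Mean levels in G9gl and WT were 1.25 and 0.383 FPKM for Fbxo36, 1.26 and 0.412 FPKM for Jdp2 and 2.52 and 0.523 FPKM for Chst7. These low genes passed the filter through G9gl alone, and their FPKM ratios were larger than that of the member beside them. Nearest to Ms4a4b were Zfp275 (0.050), Micu3 (0.056) and Poc1a (0.064), which did not pass. Among the members themselves, Ms4a4c and Ms4a6b were the closest pair (0.15) and Ms4a1 and Ms4a6c the most distant (0.79).

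**Figure D5:**
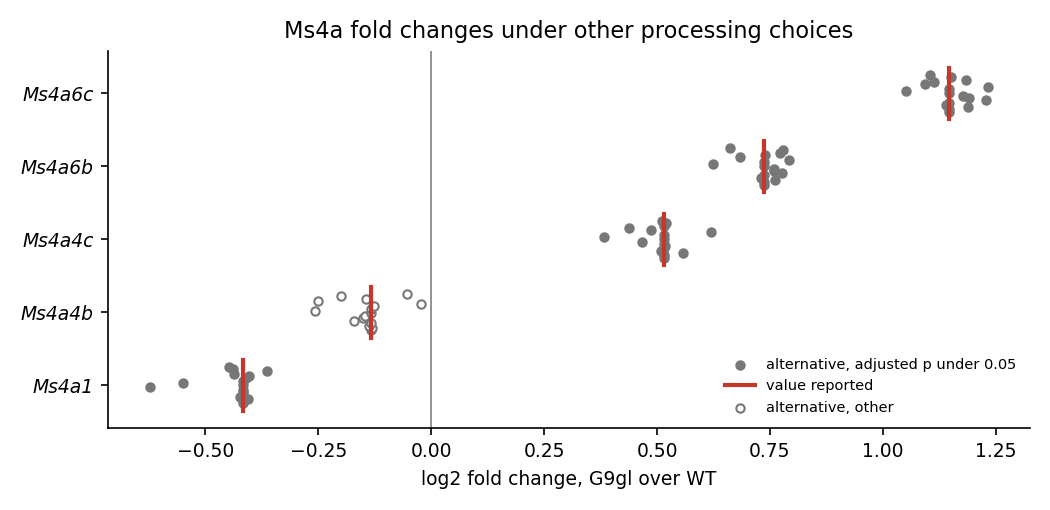
Log2 fold change (G9gl over WT) of the 5 tested Ms4a genes, with the value reported as a red line and each alternative processing as a point, filled at an adjusted p under 0.05. Ms4a1 stays below 0 and Ms4a4c, Ms4a6b and Ms4a6c stay above 0 with filled points throughout, and the points of Ms4a4b are open.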

How the data were processed

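The authors deposited 1 table per library with a gene symbol and an FPKM value. Per the submitters' processing notes the tools were Cufflinks 2.2.1, SAMtools 0.1.19, TopHat2 2.0.13 and Bowtie2 2.2.3, with build mm10, and per the labels' protocols SMART-Seq HT cDNA went into Nextera libraries. Which annotation was used, and whether libraries were scaled to each other, is not stated there. Summed FPKM was 657759 to 671533 in G9gl and 603054 to 611557 in WT. The files hold no counts. From the value that 1 fragment gives in single-transcript genes of at least 1500 bases, depth was estimated at 9390000 to 11000000 fragments in G9gl and 9390000 to 10200000 in WT.

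Tests used limma 3.58.1 in R 4.3.3 (eBayes with a trend) on log2(FPKM + 1), with a single term for genotype, for genes with 1 FPKM or more in at least 3 libraries, and were tested on simulated data first. At an adjusted p under 0.05 this called 1191 genes higher and 1174 lower, and rescaling to TPM called 730 higher and 2493 lower, where the median of all genes moved to -0.13. Positions came from GENCODE M21 (GRCm38, the assembly of mm10) and alignments from Biopython 1.88. Members and lists were chosen with earlier results of these data known. Beyond the members, named genes were called genes near the cluster, up to 4 called genes per list by smallest p, abundant markers, relatives and nearest profiles, with other genes named after their values were seen. The 17 alternatives were other pseudocounts, filters, scalings, library weights, a block on replicate number, a robust fit and fits without 1 library.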

Additional observations from a re-analysis of the deposited data

How the results depend on the processing

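Across the 17 alternatives Ms4a1 stayed lower and Ms4a4c, Ms4a6b and Ms4a6c stayed higher with an adjusted p under 0.05, so that 3 members were called higher and 1 lower each time. The log2 fold change ranged from -0.62 (quantile normalization) to -0.36 (without WT replicate 1) for Ms4a1, from 0.38 (rescaled to TPM) to 0.62 (without G9gl replicate 1) for Ms4a4c, from 0.62 to 0.79 for Ms4a6b and from 1.05 to 1.23 for Ms4a6c, and the highest adjusted p were 0.0085, 0.017, 0.0054 and 0.0014, all with no filter. Relative to the shifted median, the TPM values were -0.42, 0.51, 0.75 and 1.18. Ms4a4b did not pass in any of the 16 alternatives that kept it (-0.26 to -0.022).

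Rescaling to TPM called 730 genes higher and 2493 lower. Leaving out 1 library gave 793 (without G9gl replicate 2) to 1076 genes higher and 689 (without WT replicate 2) to 1175 lower. With the replicate number as a block 1044 were higher and 988 lower. Same-numbered libraries did not deviate together (correlations 0.099, -0.069 and 0.021 for numbers 1, 2 and 3), and G9gl replicate 2 correlated best with WT replicate 3 (0.16). These values gave no sign of pairing by number, but deviations from means of 3 libraries cannot exclude it.

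The alternatives gave 1132 values for 69 other tested genes, which include all that are named except Itpr2, Blnk, Pou2f1 and Pou2f2. Of these values 1069 kept direction and call, 39 lost the call (11 for Nkg7), 9 gained it and 15 reversed. The reversals were all in genes that were not called. Leaving out 1 library gave -0.18 to 0.051 for Tmem176b, -0.18 to 0.0013 for Zfp275, -0.14 to 0.068 for Poc1a, -0.015 to 0.045 for Ikzf3 and -0.021 to 0.10 for Orai3. Tmem176b was at 0.051 without WT replicate 3 and 0.045 without G9gl replicate 3, Zfp275 at 0.0013 without G9gl replicate 2, and Poc1a at 0.068 without WT replicate 3 and 0.042 without G9gl replicate 2. Ikzf3 was at -0.011 after quantile normalization, -0.0011 after median-ratio scaling and -0.13 after rescaling to TPM, which also gave -0.080 for Orai3 and -0.014 for Stim1. The cause was not tested. Zbtb46, Klrd1, Jchain, Fbxo36, Jdp2, Chst7 and a macrophage marker, called higher, did not pass the filter on low values when a G9gl library was left out. Depth limits Ms4a6d and Ms4a7, which rest on 1 to 30 fragments per library.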
